A study of Mus musculus with 12 samples.

Results

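Homeostatic microglial genes and the chains of complement C1q were measured in the hippocampus of young mice carrying an Alzheimer's disease transgene, a p75 neurotrophin receptor knockout label, or both. The set held 30 genes, taken by symbol from a list of homeostatic and pan-microglial genes; the rule itself uses no measured value, and the list was drawn up with earlier results of these data known. All 30 were among the 24421 genes of the deposited count table, and 29 were among the 13065 genes that passed the filter on low counts and were tested. Mertk, a receptor tyrosine kinase for engulfment of dead cells, was the member below the filter. It had 2, 2 and 2 counts in the WT libraries, with 5, 2 and 6 for 5xFAD, 5, 3 and 4 for p75NTRko and 5, 3 and 1 for 5xFAD/p75NTRko, at or near the limit of 3 counts below which no level was read. In 0 of the 6 comparisons did a member pass an adjusted p of 0.05 in edgeR's quasi-likelihood test. The members' summed level varied 1.15-fold over 12 libraries. It varied 1.23-fold, with WT lowest, without Cx3cr1 and C1qa, which were highest on average in WT and were set aside after the values were seen.

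The 12 libraries came from the hippocampus of mice 2 months old, and every animal had been injected with BrdU, a thymidine analogue that labels dividing cells. There were 3 libraries for each of 4 genotype labels: WT, 5xFAD, p75NTRko and 5xFAD/p75NTRko. 5xFAD is a line in which mutated human genes of familial Alzheimer's disease are driven in neurons by Thy1 promoter sequence, and p75NTRko names a knockout of the receptor encoded by Ngfr. The strain background, the sex, the deleted exon of the receptor gene and the number of animals behind a library were not given in the sources used here, and all libraries carried a single batch label. Reads came from the 3′ ends of polyadenylated transcripts, so a count stands for a transcript and carries no term for gene length. Levels are given in CPM, counts scaled to library sizes that were normalised by TMM.

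Microglia are the resident macrophages of brain tissue, and in the healthy adult brain they hold a characteristic set of surface receptors and secreted proteins that is termed homeostatic. Receptors such as P2ry12, Cx3cr1 and Csf1r sense nucleotides, fractalkine and colony-stimulating factor, while TGF-β signalling and the transcription factors Sall1, Spi1 (PU.1) and Irf8 maintain the state. C1q, the starter molecule of the classical complement pathway, is assembled from chains encoded by C1qa, C1qb and C1qc, and in the brain it is made chiefly by microglia, where it can tag synapses for removal. In mouse models with amyloid, homeostatic genes are known to be turned down in microglia that meet plaques.

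The C1q genes lie side by side on the minus strand at chr4:136880126-136898844 (GRCm38), a cluster of 18.7 kb. Upstream windows of 250 bases are shown for C1qb, C1qc and P2ry12. They were chosen because the first pair moved together over libraries (Pearson r 0.71, Spearman 0.35) while their neighbour C1qa did not. They were also chosen because all 3 windows hold the letters AGGAAGT, the core that ETS factors such as PU.1 bind. They were read from RefSeq (GRCm38.p6), which had an entry for 23 of the 30 members, and lie at chr4:136886201-136886450, chr4:136892915-136893164 and chr3:59262986-59263235, all on the minus strand. Capitals mark AGGAAGT or its reverse complement ACTTCCT, written 5′ to 3′ on the strand of the gene.
C1qb: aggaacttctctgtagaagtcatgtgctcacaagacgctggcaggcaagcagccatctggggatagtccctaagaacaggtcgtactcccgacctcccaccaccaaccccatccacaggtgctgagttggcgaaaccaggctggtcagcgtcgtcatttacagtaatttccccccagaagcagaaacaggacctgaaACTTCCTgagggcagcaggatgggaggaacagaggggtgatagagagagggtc
C1qc: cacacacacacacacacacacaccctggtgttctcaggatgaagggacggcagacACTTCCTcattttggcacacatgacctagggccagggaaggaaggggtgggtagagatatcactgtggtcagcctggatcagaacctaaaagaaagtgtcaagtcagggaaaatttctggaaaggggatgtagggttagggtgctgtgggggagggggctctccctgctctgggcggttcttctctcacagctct
P2ry12: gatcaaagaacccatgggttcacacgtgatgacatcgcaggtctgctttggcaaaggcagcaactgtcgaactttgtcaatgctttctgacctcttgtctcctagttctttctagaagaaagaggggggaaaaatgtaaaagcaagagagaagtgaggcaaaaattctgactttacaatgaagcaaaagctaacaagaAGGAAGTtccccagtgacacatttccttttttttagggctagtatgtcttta
The match began 53 bases before the start site in C1qb and 195 in C1qc, both in the reverse orientation, and 52 in P2ry12 in the forward orientation. The gene model of C1qc ends at 136892936, inside its window, so the start site used for C1qc is not the outer end of that model. AGGAAGT on either strand was present in 5 of the 23 member windows (21.7%; P2ry12, Fcrls, C1qb, C1qc and Ptprc) and in 7.80% of 27025 windows of the same length over all genes. The longer GAGGAAGT, which contains it, was in 1 of 23 (C1qc) and 2.44% of all windows. The IRF letters, GAAA followed by GAAA after 2 further bases of any kind, were in 2 of 23 (Ctss and Aif1) and 3.04%. A match is a description of these letters and does not show binding. C1qa, Csf1r, Gpr34, P2ry6, Selplg, Spi1 and Tmem119 had no entry in the table used here.

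Gene-assigned counts ran from 4316740 to 6683610 per library (to 6 significant digits), at which 3 counts were worth 0.446 to 0.690 CPM. Ngfr was higher, against the label, in the 6 libraries labelled as knockouts (5.95 to 10.5 CPM, against 0.166 to 1.95 CPM in the other 6), so the receptor genotypes are given only as labelled. As the deleted exon was not given, it is not known whether these 3′ counts lie outside the deleted part. They separate the labelled libraries from the others but cannot show whether the receptor is lost. Xist separated 7 libraries (359.7 to 439 CPM: all WT, all 5xFAD/p75NTRko and p75NTRko replicate 1) from the other 5 (1.53 to 3.58 CPM), so that this class and the genotype cannot be told apart where 5xFAD is compared with WT or with 5xFAD/p75NTRko. Of the members, 1 lies on the X chromosome (Gpr34). On the first principal component of all genes, 3 libraries stood apart from the others: WT replicate 2 (-43.0), WT replicate 1 (-23.1) and 5xFAD/p75NTRko replicate 3 (-18.3). Several results against WT are given with and without them below, and others as a range over the alternatives. Markers of monocytes and neutrophils, of lymphocytes and of red blood cells were at or near 0, with 3 to 36, 0 to 5 and 0 to 6 counts summed per library. Markers of border macrophages, the other macrophages of the brain and its coverings, summed to 22.1 to 46.5 CPM, against 806 to 926 CPM for the members.

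The members' summed level overlapped between all genotypes, but WT lay below the others once Cx3cr1 and C1qa were set aside. With all members it was 854.9 ± 42.6 CPM for WT, 871 ± 47.6 for 5xFAD, 875 ± 43.3 for p75NTRko and 848 ± 36.8 for 5xFAD/p75NTRko (SD, n = 3 each). These genotype means lay closer together than the libraries of a single genotype. Cx3cr1 and C1qa, the members with the widest spread over counting noise, weigh heavily in that sum. Both also had their highest mean in WT (261 and 87.4 CPM), so setting them aside lowers the WT sum most. Without them the sum was 520, 482 and 516 CPM in WT replicates 1 to 3 and 529 to 593 CPM in the other 9 libraries. Every WT library then lay below every other. The means were then 506 ± 20.8 CPM for WT, 553 ± 35.0 for 5xFAD, 554 ± 33.0 for p75NTRko and 553 ± 6.16 for 5xFAD/p75NTRko (SD, n = 3 each). The mean log2 CPM of the tested members, in which each gene has equal weight, was likewise lowest in WT, by a margin that was narrow at its closest (3.639 to 3.758, against 3.761 to 3.975 in the others). Their median log2 CPM did not separate WT. It was 3.64 to 3.82 in WT, 3.55 to 4.05 in 5xFAD, 3.84 to 3.94 in p75NTRko and 3.68 to 3.87 in 5xFAD/p75NTRko. By that measure 5xFAD replicate 1 was the lowest library. These sums were formed after the values were seen and carry no test, and WT replicates 1 and 2 are among the libraries that stood apart. The members took 0.0809% to 0.0929% of gene counts. Over the same libraries the summed levels of choroid plexus markers varied 40.6-fold, of thalamus and habenula markers 3.18-fold and of oligodendrocyte markers 1.89-fold, while those of astrocyte markers varied 1.18-fold. In such bulk samples, fewer cells of a type and less RNA per cell cannot be told apart.

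**Figure D1:**
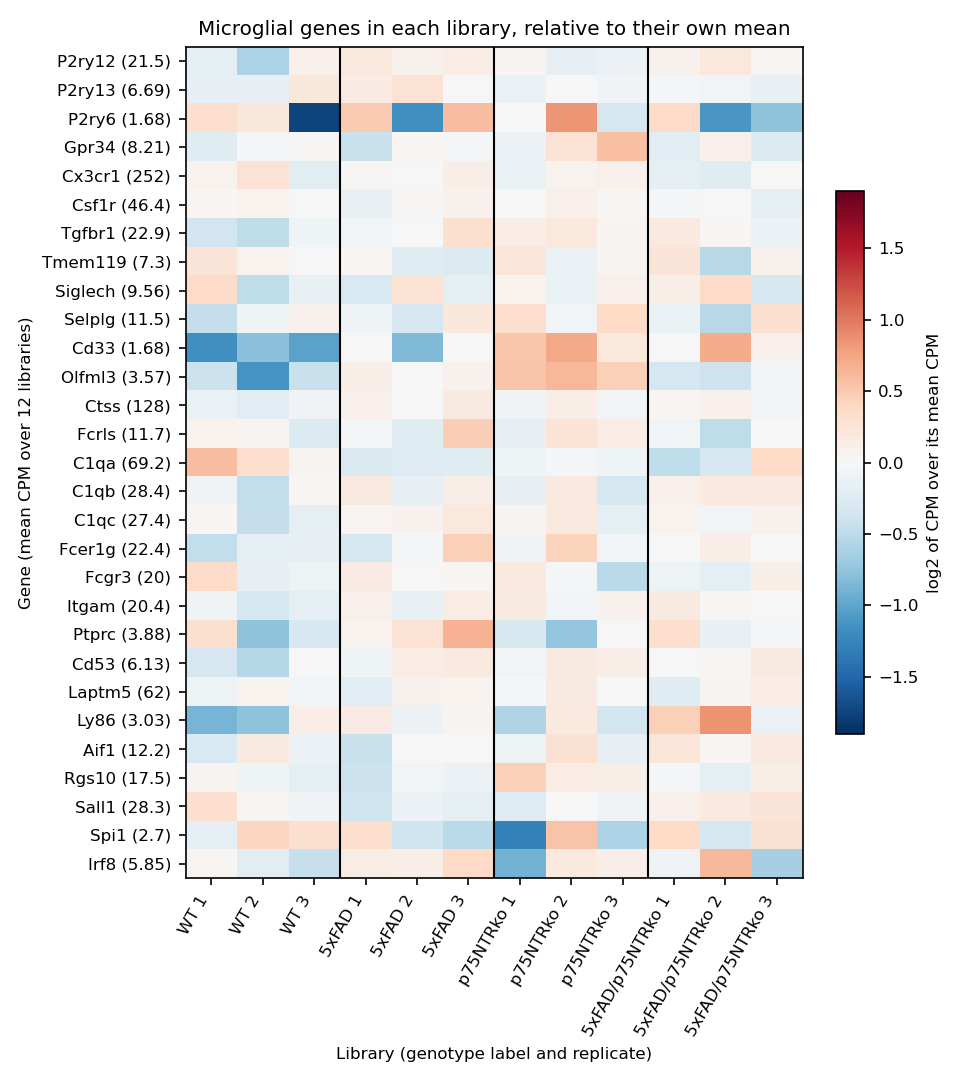
Log2 of each gene's CPM over its own mean CPM (colour) in each of 12 libraries (columns, 3 per genotype label) for the 29 tested members (rows, with the mean CPM over libraries). No genotype is red or blue in all rows, but the adjacent rows of Cd33, Olfml3 and Ctss lie below their means in every WT library. The strongest colours sit in low genes such as P2ry6, Cd33, Olfml3 and Spi1.

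In 5xFAD against WT, 0 of 29 members passed the adjusted threshold, against 7 of all genes tested (0.0536%). At an unadjusted p under 0.05 there were 6 members (20.7%): P2ry12, Tgfbr1, Olfml3 and Ctss at higher levels and C1qa and Sall1 at lower levels in 5xFAD, where the share of all genes was 13.9%. In p75NTRko against WT, 0 members passed (0% of all genes), and Tgfbr1, Cd33, Olfml3 and C1qa, 4 of 29 (13.8%), had an unadjusted p under 0.05 against 11.5% of all genes. In 5xFAD/p75NTRko against WT, 0 members passed (0% of all genes), and Tgfbr1, Cd33, C1qa and Ly86 had an unadjusted p under 0.05, again 4 of 29 against 9.95%. These 3 comparisons share the WT libraries, so the return of Tgfbr1 and C1qa in each is no independent repeat. Shares of this size are near those of all genes and are not a result about the members.

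The other comparisons gave as few. In 5xFAD/p75NTRko against 5xFAD, 0 members passed the adjusted threshold (5 of all genes, 0.0383%), and Sall1 alone had an unadjusted p under 0.05, or 3.45% of members against 5.08% of all genes. In 5xFAD/p75NTRko against p75NTRko, 0 members passed (0% of all genes), and Olfml3 alone had an unadjusted p under 0.05, against 6.59% of all genes. In the interaction of the transgene and the receptor label, which asks whether the transgene's effect differs with the label, 0 members passed (5 of all genes, 0.0383%), and Tgfbr1, Olfml3, C1qa and Sall1 had an unadjusted p under 0.05, 4 of 29 against 9.32%. The Xist class follows the interaction in every library but p75NTRko replicate 1, so the class and the interaction can hardly be told apart. DESeq2 and limma-trend also called 0 members in each comparison.

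The medians of the members' log2 fold changes were small, while single members reached 1.44, for Cd33 in p75NTRko, and -1.47, for the Olfml3 interaction. The median was 0.18 in 5xFAD against WT, with 19 of 29 above 0, where the median of all genes was -0.0036 and 49.6% lay above 0. It was 0.13 in p75NTRko against WT, with 21 of 29 above 0 (all genes 49.9%), and 0.12 in 5xFAD/p75NTRko against WT, with 19 of 29 above 0 (all genes 50.8%). Against 5xFAD and against p75NTRko, the medians in 5xFAD/p75NTRko were -0.020 and -0.015, with 13 and 12 of 29 above 0 (all genes 52.8% and 53.3%). For the interaction the median was -0.18, with 9 of 29 above 0 (all genes 50.3%).

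**Figure D2:**
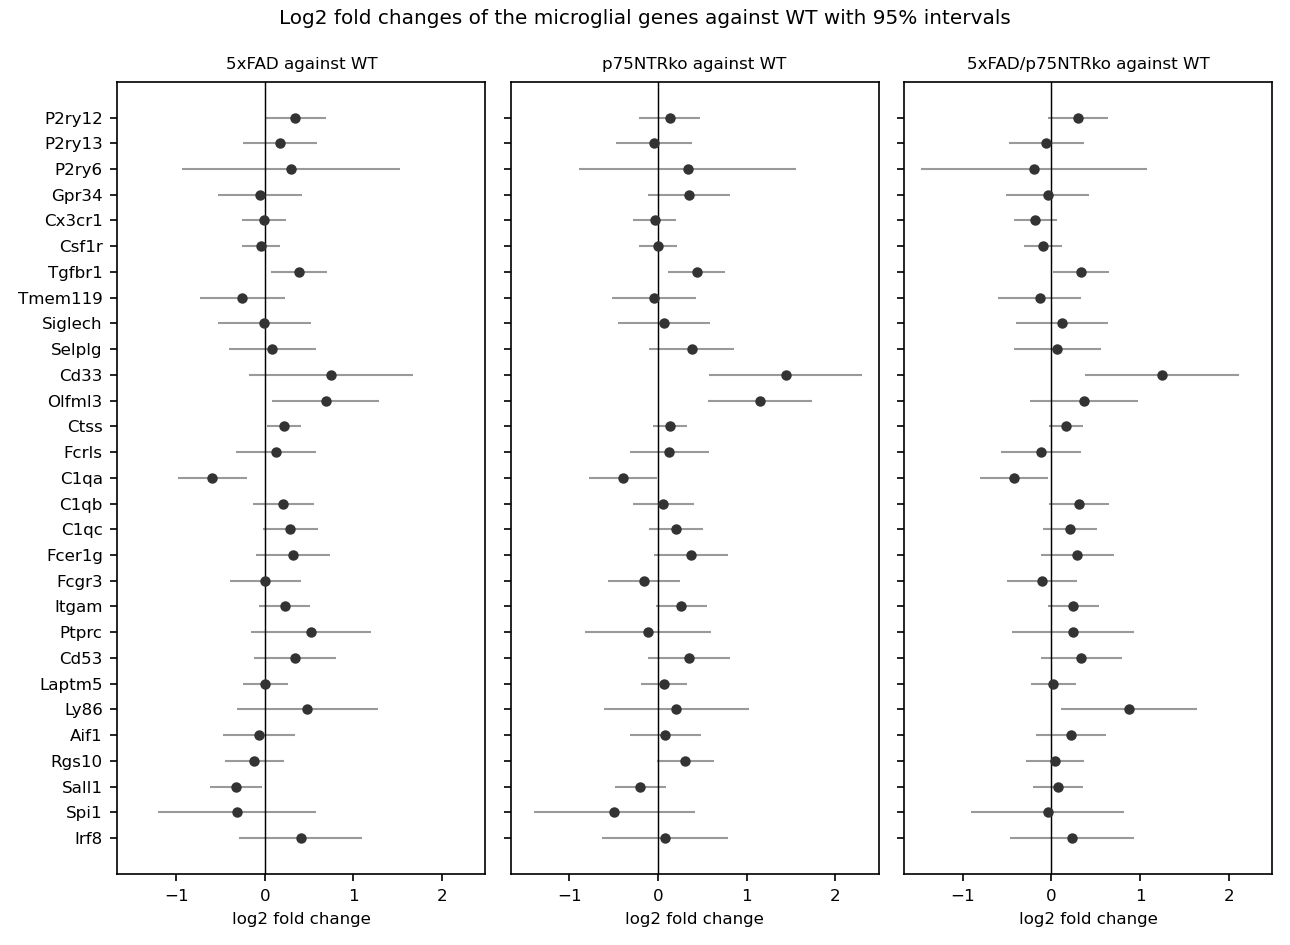
Log2 fold change (horizontal axis) of each of the 29 tested members (vertical axis) in 5xFAD, p75NTRko and 5xFAD/p75NTRko, each against WT, from edgeR; lines are 95% intervals, unadjusted over genes. Points lie close to 0 for Cx3cr1, Csf1r and Laptm5, and intervals are widest for the low genes P2ry6, Cd33 and Spi1.

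C1qa, which encodes the A chain of C1q, held the smallest p of the members in 5xFAD against WT. It stood at 104, 86.7 and 71.8 CPM in the WT libraries (replicates 1 to 3), 57.0, 58.4 and 58.9 in 5xFAD, 65.6, 68.3 and 65.1 in p75NTRko, with 49.8, 55.7 and 89.7 in 5xFAD/p75NTRko. All WT libraries lay above all 5xFAD and all p75NTRko libraries, while 5xFAD/p75NTRko replicate 3 lay inside the WT range and its 2 sister libraries below every other. The means were 87.4 ± 15.9 CPM in WT, 58.1 ± 0.959 in 5xFAD, 66.3 ± 1.71 in p75NTRko and 65.1 ± 21.5 in 5xFAD/p75NTRko (SD, n = 3 each). Against WT the log2 fold change was -0.59 for 5xFAD (SE 0.18, 95% interval -0.98 to -0.20, edgeR adjusted p = 0.236), -0.40 in p75NTRko (adjusted p = 0.422) and -0.42 in 5xFAD/p75NTRko (adjusted p = 0.489).

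C1qb and C1qc, the genes of the B and C chains, did not follow it. C1qb was at 27.0, 20.6 and 29.0 CPM in WT replicates 1 to 3, at 32.3, 25.5 and 30.9 in 5xFAD, at 25.6, 32.2 and 22.6 in p75NTRko and at 30.5, 32.4 and 32.1 in 5xFAD/p75NTRko. C1qc was at 28.1, 20.0 and 24.4 CPM in WT replicates 1 to 3, at 28.0, 29.1 and 31.6 in 5xFAD, at 28.4, 31.3 and 24.1 in p75NTRko and at 28.6, 26.3 and 29.0 in 5xFAD/p75NTRko. For both genes WT replicate 2 was the lowest of all libraries and the genotypes overlapped, except that the 5xFAD/p75NTRko libraries all lay above WT for C1qb. Their log2 fold changes in 5xFAD against WT were 0.21 (95% interval -0.13 to 0.55, adjusted p = 0.558) and 0.29 (-0.019 to 0.60, adjusted p = 0.383). The proteins join in equal parts, which ratios of RNA counts between genes do not measure. The C1qb to C1qc ratio of counts stayed between 0.877 and 1.23 over the 12 libraries. The ratio of C1qa to C1qb ran from 1.63 in 5xFAD/p75NTRko replicate 1 to 4.20 in WT replicate 2.

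**Figure D3:**
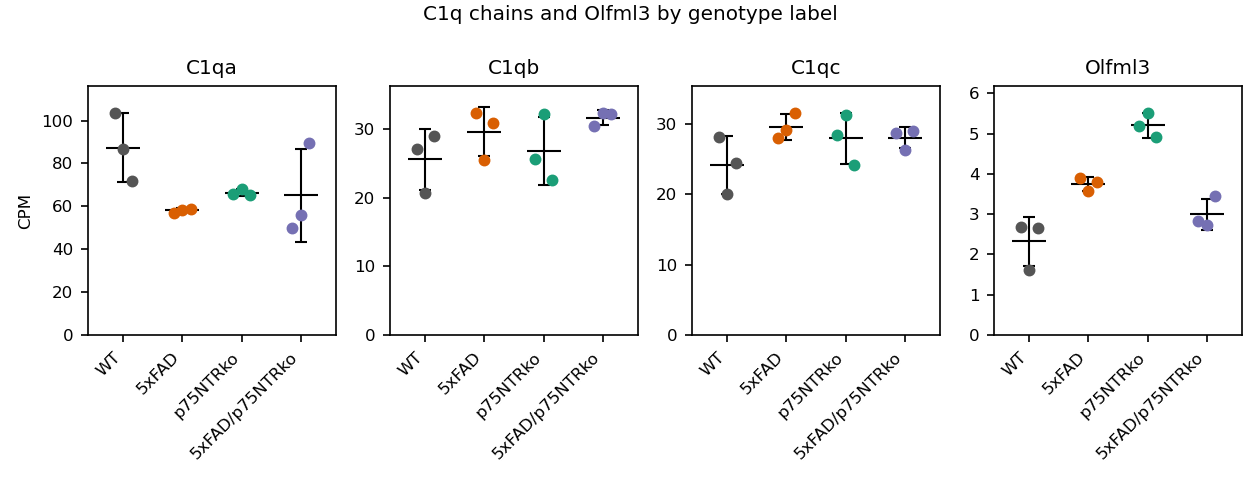
CPM (vertical axes, from 0) of C1qa, C1qb, C1qc and Olfml3 by genotype label; points are libraries, the horizontal line is the mean of 3 and the bar its SD. The C1qa points of 5xFAD lie within 57.0 to 58.9 CPM, under every WT point, while C1qb and C1qc overlap between WT and 5xFAD.

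The level of C1qa moved with the first principal component. The 3 libraries highest in C1qa (104, 89.7 and 86.7 CPM) were the 3 lowest on that component, and the correlation over 12 libraries was r = -0.83 (Spearman -0.83), or -0.49 in the other 9. As many as 1013 genes (7.75% of those tested) had an absolute r above 0.8 with the component. The genes most like C1qa over the libraries were Tyro3 (r = 0.95), which encodes a receptor tyrosine kinase, and Dlg4 (0.94), which encodes a postsynaptic scaffold; C1qb ranked 9316 and C1qc 9149 of 13064. These correlations describe libraries that share depth scaling and genotype, and their part in the C1qa difference was not tested. Without those 3 libraries the log2 fold change of C1qa was -0.30 in 5xFAD against WT (adjusted p = 0.531) and -0.11 in p75NTRko (adjusted p = 0.913), with a lone WT library that is assumed to vary like the other genotypes. In 5xFAD/p75NTRko it was then -0.45 (adjusted p = 0.421), but this value rested on single libraries: it was -0.73 without 5xFAD/p75NTRko replicate 3 and -0.26 without replicate 1. The C1qa interaction of 0.56 became 0.26 without that replicate 3, and the value in p75NTRko became -0.26 without WT replicate 1. Markers of thalamus and habenula, regions next to the hippocampus, also differed between these groups: their summed level was 311, 537 and 507 CPM in WT, 211 to 272 CPM in 5xFAD and 216 to 226 CPM in p75NTRko. Of 8 tested markers 7 were at lower levels than WT in 5xFAD, 4 of them at an unadjusted p under 0.05 (13.9% of all genes), and 7 in p75NTRko, 6 of them at such a p (11.5% of all genes), with median log2 fold changes of -0.82 and -0.99. In 5xFAD/p75NTRko the sum was 199.8 to 636 CPM. Their part was not tested.

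Among the secreted and lysosomal members, Olfml3, an extracellular matrix protein that microglia secrete, had the smallest p of the members in p75NTRko against WT. It was at 2.69, 1.62 and 2.65 CPM in WT replicates 1 to 3, at 3.91, 3.57 and 3.79 in 5xFAD, at 5.19, 5.52 and 4.91 in p75NTRko and at 2.83, 2.73 and 3.44 in 5xFAD/p75NTRko. The 4 genotypes did not overlap: WT was lowest, then 5xFAD/p75NTRko, 5xFAD and p75NTRko. These levels rest on 10 to 33 counts per library. The log2 fold change was 1.15 in p75NTRko against WT (SE 0.27, 95% interval 0.57 to 1.73, edgeR adjusted p = 0.212), 0.69 in 5xFAD (adjusted p = 0.324) and -0.78 in 5xFAD/p75NTRko against p75NTRko (adjusted p = 0.711). The interaction was -1.47 (SE 0.39, 95% interval -2.30 to -0.64, adjusted p = 0.331). Over the alternatives the log2 fold change of Olfml3 against WT was 0.95 to 1.27 in p75NTRko and 0.49 to 0.81 in 5xFAD.

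Ctss, the lysosomal protease cathepsin S, was among the most abundant members. It stood at 117, 111 and 123 CPM in WT replicates 1 to 3, at 137, 128 and 144 in 5xFAD, at 123, 139 and 123 in p75NTRko and at 131, 137 and 124 in 5xFAD/p75NTRko. The 3 WT libraries lay below the other 9, by a small margin: the log2 fold change in 5xFAD against WT was 0.22 (SE 0.090, 95% interval 0.026 to 0.41, adjusted p = 0.323). Over the alternatives this value was 0.13 to 0.26. Ctss also moved with the first principal component (r = 0.79, and 0.48 without the 3 lowest libraries). Fcrls, an Fc receptor-like protein of mouse microglia, ranged from 8.38 to 16.2 CPM with overlap of all genotypes.

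Among the surface receptors, P2ry12, the ADP receptor that guides microglial processes, was at 19.0, 14.1 and 23.1 CPM in WT replicates 1 to 3, at 24.8, 22.7 and 23.8 in 5xFAD, at 22.2, 19.3 and 19.9 in p75NTRko and at 22.6, 24.8 and 21.8 in 5xFAD/p75NTRko. WT replicate 2 was the lowest library, and WT overlapped each other genotype. The log2 fold change in 5xFAD against WT was 0.34 (SE 0.16, 95% interval 0.0031 to 0.69, adjusted p = 0.357), 0.18 without WT replicate 2, and 0.045 without the 3 libraries that stood apart (adjusted p = 0.978). Tmem119, a membrane protein used as a marker of microglia, was at 8.67, 7.63 and 7.30 CPM in WT replicates 1 to 3, at 7.47, 6.20 and 6.10 in 5xFAD, at 8.53, 6.67 and 7.58 in p75NTRko and at 8.66, 5.07 and 7.71 in 5xFAD/p75NTRko. All genotypes overlapped, and the log2 fold change in 5xFAD against WT was -0.25 (95% interval -0.73 to 0.23, adjusted p = 0.615), or -0.14 without those 3 libraries.

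Cx3cr1, the fractalkine receptor, was the most abundant member. It was at 262, 303 and 218 CPM in WT replicates 1 to 3, at 256, 249 and 274 in 5xFAD, at 232, 262 and 269.7 in p75NTRko and at 224, 215 and 251 in 5xFAD/p75NTRko. The spread within WT covered all other libraries but 1, and the log2 fold change in 5xFAD against WT was -0.0087 (95% interval -0.25 to 0.24, adjusted p = 0.977). Csf1r, the receptor on which microglial survival depends, was at 47.5, 48.8 and 46.0 CPM in WT replicates 1 to 3, at 42.1, 46.9 and 49.2 in 5xFAD, at 46.0, 49.4 and 47.3 in p75NTRko and at 45.8, 46.6 and 41.2 in 5xFAD/p75NTRko. It was the steadiest member, with a highest library 1.20 times the lowest and log2 fold changes against WT of -0.043, 0.0026 and -0.093 in 5xFAD, p75NTRko and 5xFAD/p75NTRko, with 95% intervals that reach from -0.26 to 0.17, -0.21 to 0.22 and -0.31 to 0.12.

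Tgfbr1, the kinase receptor of TGF-β, was at 17.8, 16.4 and 21.7 CPM in WT replicates 1 to 3, at 22.1, 23.1 and 28.2 in 5xFAD, at 25.4, 26.4 and 23.8 in p75NTRko and at 26.0, 23.2 and 21.1 in 5xFAD/p75NTRko. All 5xFAD and p75NTRko libraries lay above WT, and 5xFAD/p75NTRko replicate 3 fell within WT. Log2 fold changes against WT were 0.39 in 5xFAD (SE 0.15, 95% interval 0.072 to 0.71, adjusted p = 0.303), 0.43 in p75NTRko (adjusted p = 0.342) and 0.33 in 5xFAD/p75NTRko (adjusted p = 0.491). Like C1qa, but with the opposite sign, Tgfbr1 moved with the first principal component (r = 0.83, and 0.017 without the 3 lowest libraries). Without those libraries its log2 fold changes were 0.17, 0.21 and 0.18 (adjusted p = 0.891, 0.891 and 0.890).

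Cd33, a sialic acid-binding inhibitory receptor, had the smallest p of the members in 5xFAD/p75NTRko against WT. It was at 0.747, 0.974 and 0.830 CPM in WT replicates 1 to 3, at 1.70, 0.939 and 1.68 in 5xFAD, at 2.41, 2.76 and 1.93 in p75NTRko and at 1.67, 2.73 and 1.80 in 5xFAD/p75NTRko, from 5 to 14 counts per library. All libraries with the receptor label lay above WT, and 5xFAD overlapped WT. The log2 fold change was 1.44 in p75NTRko (95% interval 0.58 to 2.30, adjusted p = 0.264) and 1.25 in 5xFAD/p75NTRko (0.38 to 2.12, adjusted p = 0.439). Over the alternatives these values of Cd33 were 1.17 to 1.58 and 0.99 to 1.38. The purinergic receptors P2ry13 (5.98 to 8.08 CPM) and P2ry6 (0.498 to 2.99 CPM), the lysophosphatidylserine receptor Gpr34 (6.11 to 12.2 CPM), the lectin Siglech (6.82 to 12.3 CPM) and the selectin ligand Selplg (7.99 to 14.9 CPM) had no unadjusted p under 0.05 in any comparison.

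The Fc receptor and integrin members were of similar abundance. Fcer1g, the shared signalling chain of Fc receptors, ranged from 16.1 to 30.7 CPM, the IgG receptor Fcgr3 from 14.0 to 25.9 CPM and Itgam, the CD11b chain of complement receptor CR3, from 16.2 to 23.0 CPM. Itgam libraries of p75NTRko and of 5xFAD/p75NTRko all lay above WT, with log2 fold changes of 0.26 and 0.25 (adjusted p = 0.468 and 0.535). Among the pan-leukocyte members, Laptm5, a lysosomal membrane protein, was at 52.6 to 69.7 CPM, Rgs10, a regulator of G-protein signalling, at 13.2 to 23.9 CPM and Aif1, the IBA1 antigen of histology, at 9.17 to 14.9 CPM. The tetraspanin Cd53 (4.22 to 6.94 CPM), the phosphatase Ptprc, or CD45 (2.27 to 6.10 CPM), and Ly86, a partner of a Toll-like receptor homologue (1.64 to 5.46 CPM), were lower. Ly86 was at 1.64, 1.79 and 3.32 CPM in WT and 4.16, 5.46 and 2.79 in 5xFAD/p75NTRko, which overlap, with a log2 fold change of 0.87 (95% interval 0.10 to 1.64, adjusted p = 0.483), or 0.53 without the 3 libraries that stood apart.

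Among the transcription factors, Sall1, which maintains microglial identity, was at 35.3, 28.9 and 26.9 CPM in WT replicates 1 to 3, at 21.7, 26.3 and 24.8 in 5xFAD, at 23.9, 28.5 and 26.9 in p75NTRko and at 30.3, 32.2 and 33.6 in 5xFAD/p75NTRko. The 5xFAD libraries lay below all WT and all 5xFAD/p75NTRko libraries, and those of 5xFAD/p75NTRko above all p75NTRko libraries. For 5xFAD against WT the log2 fold change was -0.32 (SE 0.14, adjusted p = 0.325). It was -0.20 without WT replicate 1 (adjusted p = 0.567) and -0.15 without the 3 libraries that stood apart. With the Xist class as a term it was -0.53 (adjusted p = 0.949). That term rests on p75NTRko replicate 1 alone, since the class varies within no other genotype, so this value cannot separate class from genotype. It was 0.40 for 5xFAD/p75NTRko against 5xFAD (95% interval 0.11 to 0.69, adjusted p = 0.729) and 0.60 for the interaction (0.19 to 1.01, adjusted p = 0.400). Spi1, the gene of PU.1, was at 2.39, 3.57 and 3.32 CPM in WT replicates 1 to 3, at 3.40, 2.07 and 1.89 in 5xFAD, at 1.11, 3.91 and 1.78 in p75NTRko and at 3.50, 2.14 and 3.28 in 5xFAD/p75NTRko, from 6 to 22 counts, with all genotypes overlapping. Irf8 ranged from 3.15 to 8.97 CPM, and its 5xFAD libraries lay above WT.

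Counting how many members separated without overlap gave shares on both sides of those of all genes. In 5xFAD against WT, 4 members were higher in every library (Tgfbr1, Olfml3, Ctss and Irf8; 13.8% against 10.5% of all genes) and 2 lower (C1qa and Sall1; 6.90% against 9.02%). In p75NTRko against WT, 7 were higher (Tgfbr1, Cd33, Olfml3, Ctss, Fcer1g, Itgam and Rgs10; 24.1% against 7.93%) and 1 lower (C1qa; 3.45% against 8.5%). In 5xFAD/p75NTRko against WT, 7 were higher (Cd33, Olfml3, Ctss, C1qb, Fcer1g, Itgam and Cd53; 24.1% against 5.95%) and 0 lower (5.53% of all genes). These 3 comparisons share the WT libraries, and 2 of the 3 WT libraries stood apart on the first principal component. In 5xFAD/p75NTRko against 5xFAD, Aif1 and Sall1 were higher (against 5.18% of all genes) and P2ry13 and Olfml3 lower (6.02%). Against p75NTRko, Sall1 was higher (6.54%) and Olfml3 and Rgs10 lower (5.74%).

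The spread of the members within genotypes was set against counting noise. The variance within genotypes over that expected from counting alone had a median of 1.99 over the 29 members, with 11 under 1.5 and 12 above 2, while over all genes tested the median was 2.67 and 65.1% lay above 2. Among members of at least 50 counts on average (18 genes) the median was 2.26, against 3.39 for all genes of that depth. Olfml3 (0.353), P2ry13 (0.358), Cd53 (0.455), Cd33 (0.524), Itgam (0.816) and Csf1r (0.818) varied no more than counting would make them. Cx3cr1 (15.8) and C1qa (15.2) stood far above the other members, of which the next was Fcer1g (4.23).

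**Figure D4:**
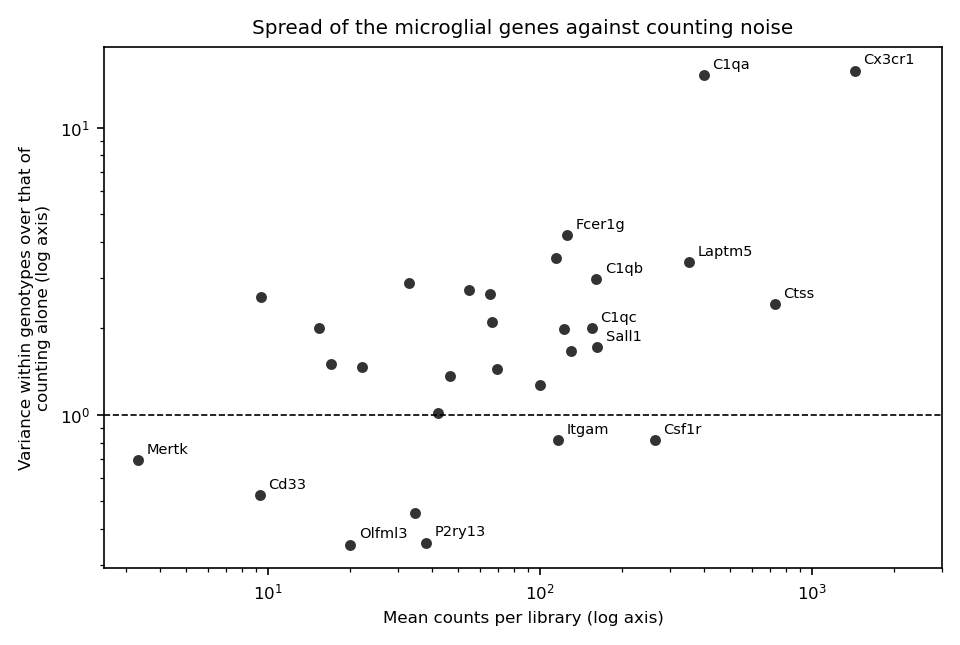
Variance within genotypes over the variance of counting alone (vertical log axis; the dashed line at 1 is counting noise) against the mean count per library (horizontal log axis) for the 30 members. C1qa and Cx3cr1 lie at 15.2 and 15.8, the other members at or under 4.23, and the C1q partners C1qb and C1qc at 2.97 and 2.00.

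The members moved together only weakly over libraries. The median Pearson r of log2 CPM over the 406 pairs of members was 0.097 (Spearman 0.13; quartiles -0.19 and 0.31), with 245 pairs positive, while over all pairs of genes tested it was -0.0017. With genotype means taken out it was 0.082, and without the 2 libraries farthest from the median of the members' mean (WT replicate 2 and p75NTRko replicate 2) 0.047. For the 18 members of at least 50 counts on average it was 0.085, or 0.13 with genotype means taken out. For all 29 members it was 0.033 within the 7 libraries of high Xist, and 0.11 without the 3 libraries that stood apart. Over the same libraries the median was 0.94 for choroid plexus, 0.70 for oligodendrocyte, 0.46 for thalamus and habenula and 0.21 for border macrophage markers. It was near that of the members or lower for neuron (0.10), endothelial (0.093) and astrocyte markers (-0.062) and for other microglial genes (0.019). All pairs share the same 12 libraries and their scaling, and these values are a description. Counting noise limits how high an r can be. The variance within genotypes over that of counting was under 1.5 in 11 of the 29 members and above 2 in 12. The part of counting noise in these values was not tested.

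**Figure D5:**
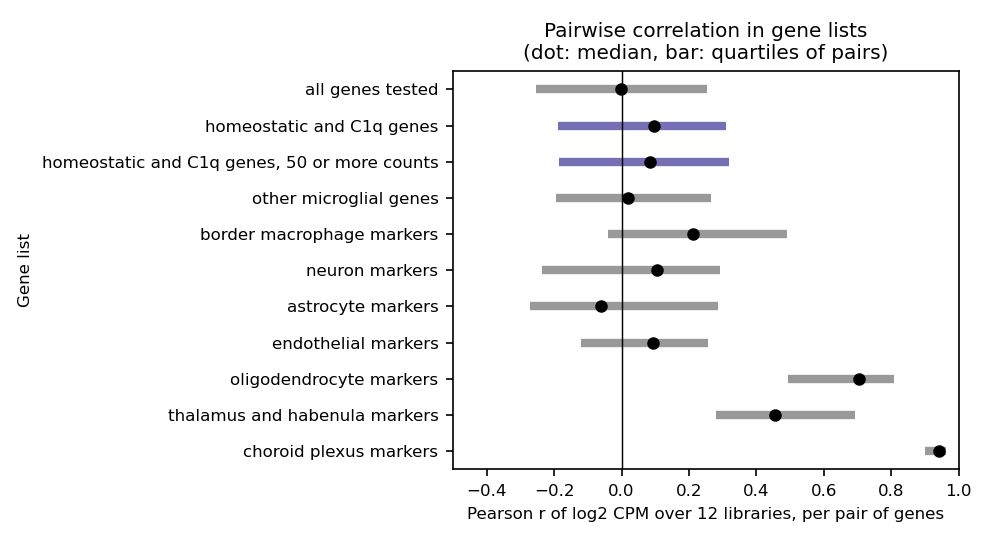
Pearson r of log2 CPM over 12 libraries for pairs of genes within a list (horizontal axis), as the median (dot) and the quartiles (bar) for each list (vertical axis). The homeostatic and C1q genes sit at 0.097, near all genes tested, and choroid plexus markers at 0.94.

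Within the set, C1qb and C1qc had an r of 0.71 (Spearman 0.35), while C1qa had -0.31 with C1qb and -0.30 with C1qc. With genotype means taken out all 3 pairs of C1q chains were positive, with a median of 0.28 (Spearman 0.54). The highest pairs were Tgfbr1 with Cd53 (r = 0.82), Tgfbr1 with Ctss (0.80) and Ctss with C1qb (0.77), and the lowest Gpr34 with Fcgr3 (-0.79) and Tgfbr1 with C1qa (-0.74). Ctss (0.79), C1qc (0.77) and Tgfbr1 (0.76) followed the mean of the other members most closely, and C1qa (-0.49) and Tmem119 (-0.31) ran against it. The 10 genes outside the set that were most like the members' mean over the 12 libraries were Zkscan6 (r = 0.91), Mgat2, E030024N20Rik, Mpeg1 (0.85), Irak1, Htra2, Wdpcp, Rasgrp1, Stxbp5 and P2rx7 (0.82). Mpeg1 encodes a pore-forming protein of macrophages and P2rx7 an ATP-gated channel.

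The genes around the members in their pathways gave no call either. Of the other microglial genes 40 of 44 were tested, of ligands and signalling partners of the member receptors 15 of 17, of complement outside C1q 17 of 23 and of border macrophage markers 8 of 10, and 0 passed the adjusted threshold of edgeR in any comparison. At an unadjusted p under 0.05 in 5xFAD against WT there were 3, 3, 2 and 0 genes in these lists, where the share of all genes was 13.9%. The smallest p-values there belonged to Tlr7, an RNA sensor (log2 fold change 1.24, adjusted p = 0.243), Tyro3, a receptor of the Mertk family (-0.60, adjusted p = 0.287), Cd59a, an inhibitor of the membrane attack complex (-1.39, adjusted p = 0.189), and Mrc1, the mannose receptor (-0.38, adjusted p = 0.630). In p75NTRko against WT they belonged to Pld4 (-1.19, adjusted p = 0.372), Tgfb2, a TGF-β ligand (0.76, adjusted p = 0.384), C3ar1, the C3a receptor (0.89, adjusted p = 0.319), and F13a1 (-0.68, adjusted p = 0.489).

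In the gene models of GRCm38, 7 members overlap another protein-coding gene (P2ry12 and P2ry13 with Med12l, Gpr34 with Cask, Cx3cr1 with 5 genes, Csf1r with Hmgxb3, Itgam with Gm49368 and Irf8 with Gm20388), 3 of them on the same strand. Whether counting used the strand was not given in the sources used here, so the counts of these members are uncertain to that extent.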

How the data were processed

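RNA with an integrity number over 7 went into QuantSeq 3′ libraries (forward kit), per the labels' protocols. The authors deposited raw counts per gene symbol. The submitters' processing notes name FastQC, HISAT2, SAMtools, HTSeq, edgeR and build mm10, with no version or role; the annotation and strand setting were not given in the sources used here. Lines that name no gene held 28.9% to 33.5% (no feature), 18.6% to 25.4% (not aligned), 9.57% to 12.1% (not unique) and 0.226% to 0.291% (ambiguous) of reads and were left out, which left 32.2% to 38.5%.

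The counts were fitted with edgeR 4.0.16 in R 4.3.3 (filterByExpr by genotype, TMM factors of 0.975 to 1.03, a quasi-likelihood fit of genotype means over all 12 libraries, Benjamini-Hochberg adjustment over 13065 genes, threshold 0.05). A prior count of 2 entered log2 CPM, and each standard error was derived from F. DESeq2 1.42.0, limma 3.58.1 and the other alternatives are given in the closing part; leaving out the 3 libraries lowest on the first component was chosen after seeing the data. The script was tested on simulated data. Rank correlations within genotypes were 0.973 to 0.990, and every replicate pair differed by more than counting noise. Counting limits cover counting error only, as reads carried no molecular identifiers. P-values measure the spread between these libraries.

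The members and lists were chosen with earlier results of these data known. All members are accounted for. Values per library are given for the C1q genes, P2ry12, Tmem119, Cx3cr1, Csf1r, Olfml3, Ctss, Sall1 and Spi1 and for the member with the smallest p-value of a comparison; of the other lists, the gene with the smallest p-value is named in 5xFAD and in p75NTRko against WT, and some results are not reported here. Tgfbr1, Ly86 and the shorter descriptions of other members were added after their values were seen.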

Additional observations from a re-analysis of the deposited data

Results flagged for a closer look

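Olfml3 is given here because its effects ran in opposite directions between groups. In every library without the transgene the receptor label went with a higher level (4.91 to 5.52 CPM against 1.62 to 2.69 in WT), and in every library with it with a lower level (2.73 to 3.44 CPM against 3.57 to 3.91 in 5xFAD). The interaction in edgeR was -1.47 on the log2 scale (unadjusted p = 0.00194, adjusted p = 0.331) and did not pass the adjusted threshold; it was -1.59 to -1.27 over the alternatives. Of all genes tested, 46 (0.352%) ran in opposite directions without overlap for both the transgene and the label. Olfml3 rests on 10 to 33 counts per library. Its variance within genotypes was 0.353 times that of counting alone, so its replicates lay closer together than counting gives on average.

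Sall1 is given because the transgene's effect had opposite signs. It was lower in every 5xFAD library than in WT, and higher in every 5xFAD/p75NTRko library than in p75NTRko, and 101 genes (0.773%) of those tested had such opposite effects of the transgene without overlap, in either order. The interaction was 0.60 (unadjusted p = 0.00670, adjusted p = 0.400) and did not pass; it was 0.39 to 0.96 over the alternatives, with 0.39 without the 3 libraries lowest on the first component. Markers of other cells and regions moved with the interaction: all 10 oligodendrocyte markers were below 0 (median -0.51, 7 at an unadjusted p under 0.05) and all 8 tested thalamus and habenula markers above it (median 1.30, 5 at such a p), where 9.32% of all genes had such a p. Their part in both results was not tested. The Xist class was high in all WT and all 5xFAD/p75NTRko libraries. It was low in all 5xFAD libraries and in p75NTRko replicates 2 and 3. The class thus follows the interaction in every library but p75NTRko replicate 1. For both genes its part cannot be told apart from the genotype in 5xFAD against WT, and hardly in the interaction.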

How the results depend on the processing

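In all alternatives run, 0 members were called in each comparison, and leaving out any 1 library also gave 0 to 0. The counts over all genes (7, 0, 5, 0, 0 and 5 for 5xFAD and p75NTRko against WT, 5xFAD/p75NTRko against 5xFAD, p75NTRko and WT, and the interaction) moved more. In that order, DESeq2 called 102, 54, 22, 20, 32 and 25, and no filter on low counts 44, 46, 14, 6, 16 and 15. With only the genotypes compared the first 3 counts were 19, 21 and 9 and the fifth 1; the interaction could not be fitted so. The Xist class as a term, which only the p75NTRko libraries can set, gave 0, 1, 0 and 1 in the first 4 and 1 in the interaction. A mean of at least 50 counts gave 1 in 5xFAD/p75NTRko against 5xFAD and 3 in the interaction. Without genes on X and Y the counts were 1 in 5xFAD against WT, 1 in 5xFAD/p75NTRko against 5xFAD and 0 in the interaction; limma-trend gave 1 and 1 in the first pair of these. Without the 3 libraries lowest on the first component they were 4 and 2 against WT, 3 in 5xFAD/p75NTRko against p75NTRko and 1 in the interaction. Leaving out each library gave 1 to 57 (57 without WT replicate 3), 0 to 26 (26 without WT replicate 3), 0 to 7, 0 to 25 (25 without 5xFAD/p75NTRko replicate 1), 0 to 4 and 3 to 20, and 0.058 to 0.13 for the median correlation between members. The cause was not tested.

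With the replicate number as a block the counts were 1 in 5xFAD against WT, 0 in 5xFAD/p75NTRko against 5xFAD and 3 in the interaction, and 0 members were called. Same-numbered libraries did not deviate together (r from -0.42 to 0.14, and 2 of 12 closest to their own number), so the numbers pair nothing.

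Of 494 alternative values of named members, 486 kept their sign and their side of the threshold and 8 changed sign, none of them past the threshold. The lowest adjusted p over these alternatives, run in edgeR, DESeq2 or limma-trend, was 0.057. It belonged to C1qa in 5xFAD/p75NTRko against WT, and the next, 0.058, to C1qa in 5xFAD against WT. Leaving out each library, Cx3cr1 in 5xFAD against WT ran from -0.13 to 0.11 and Csf1r from -0.092 to 0.019. Cx3cr1 became 0.11, 0.0012 and 0.016 without WT replicate 2, 5xFAD replicate 1 and 5xFAD replicate 2, 0.0034 in limma-trend and 0.25 without the 3 libraries. Csf1r became 0.019 without 5xFAD replicate 1 and 0.0032 without the 3 libraries, and the C1qa interaction became -0.027 without them. Depth limits Mertk, P2ry6, Cd33, Spi1, Ly86, Ptprc and Olfml3, whose libraries held at most 33 counts.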
